A study of Homo sapiens with 6 samples.

Results

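Transcripts that GENCODE annotates with the type nonsense_mediated_decay were followed in HCT116, an established human colorectal carcinoma line, after 16 h of auxin and in a DMSO control. Members were all transcripts of that type in GENCODE 29 whose mean expected count over the 6 libraries was at least 10. The rule kept 7610 of 15291 annotated transcripts, in 4393 genes, out of 206761 human transcripts of every type. Of the 7681 below the minimum, 3208 had an expected count of 0 in every library. Just outside the minimum stood MAP6D1-203 and ZNF670-ZNF695-201 with a mean count of 9.9983 each, and just inside stood FANCA-212 with 10.0117 and ARHGAP19-SLIT1-202 with 10.0283. The minimum was set on the mean of all libraries, without regard to their group. A transcript could therefore pass through either group alone: 132 members were at 0 in all auxin libraries and 56 in all DMSO libraries.

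Each group held 3 biological replicates. Auxin is used in cell lines carrying a degron tag to remove a tagged protein, but the labels name neither a tagged protein nor a parental clone, and they give no time for the DMSO cells. Total RNA with an integrity number of 10 was depleted of ribosomal RNA, so RNA without a poly(A) tail and nuclear RNA also entered the stranded libraries. Bulk RNA from a whole culture cannot tell fewer cells expressing a transcript from less RNA per cell.

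Nonsense-mediated mRNA decay is a surveillance pathway that degrades mRNAs on which the ribosome meets a stop codon too far upstream. The usual signal is an exon junction complex that splicing leaves on a junction downstream of the stop codon, and the helicase UPF1, with UPF2, UPF3B and the SMG proteins, acts on such mRNAs. Many splicing factors, the SR proteins among them, keep their own level in check by splicing in poison exons that send the transcript into this pathway. A transcript of this type is therefore an annotation by sequence, and its measured level reflects both how much is made and how quickly it is lost.

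The defining feature of the annotation was visible in the gene models. Of the 7602 members with an annotated stop codon, 7552 (99.34%) had it at least 50 bases upstream of the last exon junction, against 0.9327% of 37525 tested protein-coding transcripts with more than 1 exon. The median distance from stop codon to last junction was 373 bases (quartiles 179 and 841.8), with a median of 3 junctions after the stop. Members had a median of 8 exons, a median length of 1446 bases against 1975 for protein-coding transcripts, and a median coding length of 306 bases against 1176. The stop codon was TGA in 57.84% of members, TAA in 22.98% and TAG in 19.18%. In 38068 protein-coding transcripts these shares were 50.09%, 28.46% and 21.41%.

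The stop codon lay inside an exon that a protein-coding transcript of the gene also has, but at another position, in 4060 members (53.35%). In 1752 members (23.02%) it lay in an exon absent from every protein-coding transcript of the gene, the arrangement of a poison exon. In 831 (10.92%) it lay in an exon longer than its protein-coding counterpart. In 784 (10.3%) the stop codon was one that a protein-coding transcript of the gene also uses. The remaining members were 175 in genes without a protein-coding transcript and 8 without an annotated stop codon. In 24 members the stop codon was in the last exon, among them G3BP1-210 of the stress granule protein G3BP1, where it lay in exon 5 of 5, at a distance of -18 bases from the last junction.

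The last coding bases of 12 members show these arrangements. They are the members on which the results below turn, or members of known poison exon genes. The sequences come from the GENCODE 29 transcripts on GRCh38, are written 5′ to 3′ along the transcript and end at the stop codon, which is in capitals. A stretch shorter than 30 bases starts where the exon with the stop codon starts.
ADA-206: gctcaaaaaTGA
R3HDM4-204: ggagcgggttcttcgctacctggaggaTGA
FBXW5-207: ctgccgccatgctgcccgcctcggtccTAG
POLM-208: ggctccagcaccaccaggaccTGA
UNK-202: ctatgttagatacTAA
KCTD13-201: catggccaacaaattgtcttcaaggacTGA
POLR2E-206: gggctctcatcgtggtgcagcagggcaTGA
SRSF3-203: accatcatgtctcttctcaccaccctcTGA
SRSF6-202: gccatgacgacagcagccttttgccatTAG
TRA2B-206: aatgagtatttgaagctcaggaataagTGA
HNRNPD-211: ggtcatcaaaatagctacaaaccatacTAA
HNRNPDL-202: aatcaccaaaacaattaccagccatacTAA
The ADA-206 stop codon, at chr20:44621136-44621138 on the minus strand, is in exon 9 of 11 and ends 12 bases into that exon, at a position where no protein-coding transcript of ADA stops. UNK-202 ends in an exon absent from the protein-coding transcripts (chr17:75791773-75791775, plus strand, exon 2 of 4), as do SRSF3-203 (chr6:36599852-36599854, plus strand, exon 4 of 7) and SRSF6-202 (chr20:43459302-43459304, plus strand, exon 3 of 7). FBXW5-207 ends in an extended exon (chr9:136942008-136942010, minus strand, exon 2 of 5). The stop codons of KCTD13-201 (chr16:29906872-29906874, minus strand, exon 6 of 7), HNRNPD-211 (chr4:82355334-82355336, minus strand, exon 5 of 7) and HNRNPDL-202 (chr4:82426059-82426061, minus strand, exon 7 of 9) are shared with a protein-coding transcript. So is that of TRA2B-206 (chr3:185931772-185931774, minus strand), but it lies early, in exon 2 of 10. The last 30 coding bases of HNRNPD-211 and HNRNPDL-202, paralogs that lie near each other on chromosome 4, had the same letter at 22 of 30 positions, whereas HNRNPD-211 and HNRNPA1-205 had it at 13 of 30. The stop codons of RPS3-218 and RPS3-206, which start 8 bases apart in the same exon, lie in different reading frames.

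The members were mostly rare transcripts with a small share of their gene's counts. Their median level was 0.2083 TPM, a level per transcript length that can be compared between genes, with quartiles of 0.07667 and 0.7833. A mean of at least 1 TPM was reached by 1658 members, 10 TPM by 290 and 100 TPM by 16. The median member held 1.061% of its gene's expected counts in DMSO and 1.033% after auxin. At least 10% of the gene's counts came from 1373 members in DMSO and 1400 after auxin, and at least 50% from 298 and 308. Members were unevenly spread over genes: 2600 genes had 1, 1793 had at least 2, 158 had at least 5 and the most was 20.

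The highest members belonged to translation, RNA-binding and replication genes. EIF4G2-231, of a translation initiation factor family member, stood at 891, 897 and 952 TPM in DMSO and at 730, 1216 and 1545 TPM after auxin, so that the groups overlapped (log2 fold change 0.53, SE 0.44, adjusted p = 0.485, edgeR quasi-likelihood test with Benjamini-Hochberg adjustment here and below). The EIF4G2 transcript is 198 bases long, and TPM is scaled by length. Although it is the highest member by TPM, its mean share of its gene's counts was 2.42% (SD 0.60, n = 3) with DMSO and 2.53% (SD 1.12, n = 3) with auxin. RACK1-224, of the ribosome-bound scaffold RACK1, stood at 612, 470 and 456 TPM against 462, 420 and 457 TPM and held 46.1% ± 3.36 and 40.2% ± 4.30 of its gene. RPS3-218, of a small-subunit ribosomal protein, stood at 568, 401 and 384 TPM against 536, 386 and 456 TPM, and held 53.3% ± 7.64 and 53.6% ± 6.72 of the counts of RPS3. Neither of these passed the level test (adjusted p = 0.942 and 0.101).

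Of the other 5 in this group, G3BP1-210 rose, from 254, 168 and 175 TPM to 275, 234 and 285 TPM, with overlapping groups (log2 fold change 0.60, SE 0.11, adjusted p = 0.0148). The call for G3BP1-210 was lost in fits without DMSO replicate 2, DMSO replicate 3 or auxin replicate 2 (adjusted p up to 0.0644). MCM4-204, of a subunit of the replicative helicase, stood at 398, 328 and 354 TPM in DMSO and 155, 158 and 224 TPM after auxin without overlap, and HNRNPA1-205 at 228, 203 and 220 TPM against 153, 141 and 159 TPM, also without overlap. Neither passed the test as fitted (adjusted p = 0.0703 and 0.221), and both did with the replicate number as a block (0.0137 and 0.00866). NACA-208 (196, 165 and 153 TPM in DMSO, 178, 194 and 184 TPM after auxin) passed with the block alone (adjusted p 0.298, and 0.0401 with it), and RPS3-206 (mean 178 TPM ± 20.8 and 179 TPM ± 20.6) passed in neither fit. RPS3 and HNRNPA1 have many processed pseudogenes, and how the reads of near-identical copies were divided is not given in the sources used here.

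As a class, NMD-annotated transcripts did not differ between the groups beyond the spread of the libraries in their share of TPM. Their summed TPM was 1.98%, 1.54% and 1.59% of the total in DMSO and 1.58%, 1.46% and 1.65% after auxin (means 1.70% ± 0.24 and 1.56% ± 0.10, SD, n = 3, two-sided exact permutation test, p = 0.5, where 20 assignments allow no p below 0.1). DMSO replicate 1 was above the other 5 libraries. The difference was -0.40 percentage points between the libraries numbered 1 and -0.0087 between those numbered 2 and 3.
Within their own genes, members took 6.24%, 6.49% and 6.27% of the expected counts in DMSO and 5.90%, 6.04% and 6.28% after auxin, which overlapped (6.33% ± 0.133 and 6.075% ± 0.192, exact permutation p = 0.3). As a share of all expected counts the groups did not overlap, at 2.284%, 2.275% and 2.262% in DMSO and 2.11%, 2.11% and 2.23% after auxin, with the smallest p that the design allows, 0.1. The 10 members with the highest mean TPM gave 19.6% of the members' summed TPM in DMSO and 21.6% after auxin (exact permutation p = 0.2).

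**Figure D1:**
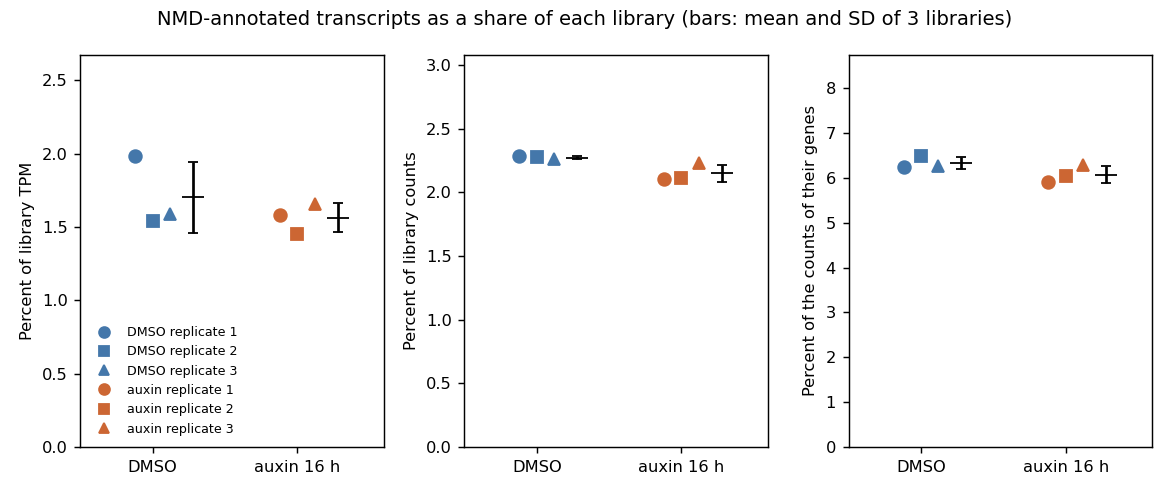
Summed level of the 7610 NMD-annotated transcripts in each library (points, 3 per group, shape by replicate number), as a percent of all TPM, of all expected counts and of the expected counts of their genes, with bars for the mean and SD. The TPM share lies between 1.46% and 1.98%, with DMSO replicate 1 highest, and the groups overlap in TPM and in the counts of their genes.

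Individual members did change. Across 89813 transcripts of every type tested for level, 17.2% passed at an adjusted p under 0.05, 7.29% higher and 9.94% lower after auxin. Among the 7610 members 349 were higher (4.586%) and 625 lower (8.213%), 12.8% in all, which is below that background. The level changed by at least 2-fold in 235 of the higher and 537 of the lower members, and by at least 4-fold in 86 and 322. The median log2 fold change over all members was -0.07, beside -0.02 over all transcripts tested. Scaling by upper quartiles, which moved the median of all transcripts to 0.17, gave 503 higher and 522 lower members, beside 10203 higher and 7472 lower among all transcripts (6548 and 8926 as fitted), so that the balance of higher and lower calls depended on the scaling for members and for all transcripts.
The TPM values of the groups did not overlap for 29.3% of all transcripts (9.35% higher, 19.9% lower) and for 27.23% of members, 570 higher and 1502 lower. Fits without DMSO replicate 2, DMSO replicate 3, auxin replicate 2 or auxin replicate 3 left 168, 189, 171 and 185 higher members, and 289, 357, 411 and 428 lower ones. In simulated data with these library sizes and 10000 changed transcripts, the level test recovered 34.1% of 4-fold changes and 7.56% of 2-fold changes, so a missed call says little about a member.

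Much of this movement went the same way as that of the host gene, the sum of all its transcripts. That sum includes the member itself, so part of the agreement is built in, most for members with a large share. Of 19725 genes tested, 52.3% passed, 25.4% higher and 26.9% lower. Among the 625 lower members the host gene was lower for 525, higher for 27 and not called for 73. Among the 349 higher members it was higher for 196, lower for 73, not called for 79 and not tested for 1. The 73 higher members of lower genes and the 27 lower members of higher genes moved against their gene.

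**Figure D2:**
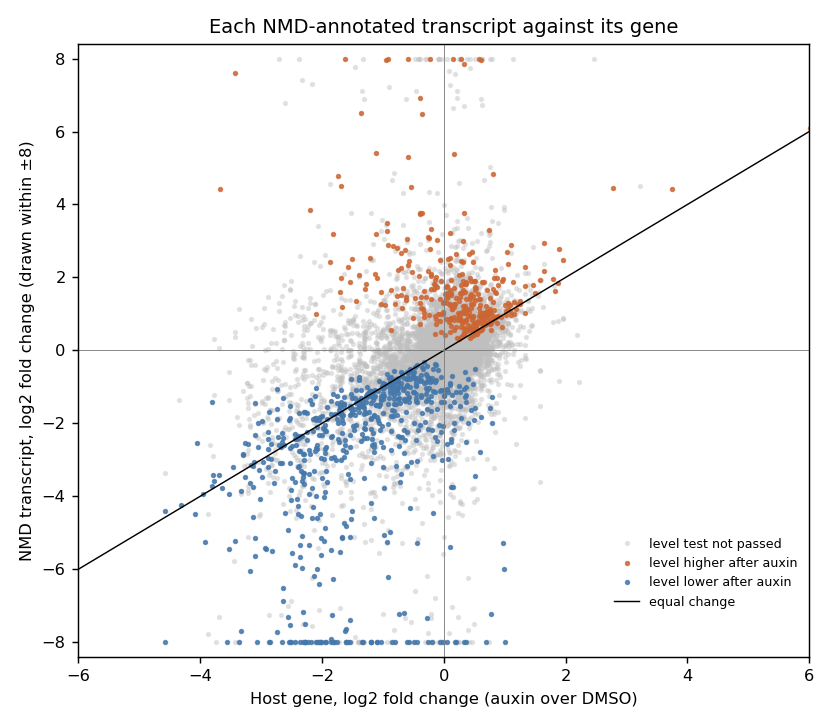
Log2 fold change of each NMD-annotated transcript after auxin (vertical, drawn within ±8) against that of its host gene (horizontal), each point 1 transcript. The 625 lower members lie mostly below 0 on both axes, 525 of them with a host gene called lower. The 349 higher members spread over both sides of the vertical zero line.

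The 8 largest rises in level, among members with at least 1 TPM and groups that did not overlap, began from transcripts with a mean of 0.433 TPM or less in DMSO, other than TMBIM1-209 with 1.04 TPM. CSNK1D-205, of casein kinase 1 delta, went from 0.01, 0.02 and 0.06 TPM to 4.50, 2.62 and 3.28 TPM (log2 fold change 6.92, SE 0.85, adjusted p = 0.00416). ERAL1-203, of a GTPase that assembles the mitochondrial small ribosomal subunit, went from 0.02, 0.02 and 0.01 TPM to 1.25, 1.17 and 1.40 TPM (6.50, SE 0.34, adjusted p = 0.000329). The gene ERAL1 fell at the same time (log2 fold change -1.35, adjusted p = 2.26e-05), and ERAL1-203 went from 0.0734%, 0.0780% and 0.0370% of its counts to 13.1%, 15.9% and 15.7%.
Both NMD-annotated transcripts of TMBIM1, a membrane protein gene of the BAX inhibitor motif family, rose: TMBIM1-210 from 0.02, 0.01 and 0.02 TPM to 1.56, 1.20 and 1.25 TPM, and TMBIM1-209 from 2.01, 0.74 and 0.37 TPM to 13.2, 8.85 and 12.4 TPM. TMBIM1-209 made up 12.7% ± 1.42 of the gene after auxin, against 0.723% ± 0.423 in DMSO, while the gene fell by 0.36 on the log2 scale (adjusted p = 0.00315). RELA-215, of the NF-kappaB subunit p65, went from 0.16, 0.10 and 0.21 TPM to 2.48, 1.61 and 1.76 TPM (3.77, adjusted p = 0.00139). EEF2KMT-203, of the methyltransferase that acts on elongation factor 2, went from 0.17, 0.18 and 0.17 TPM to 2.00, 2.09 and 2.30 TPM (3.76, adjusted p = 0.00087), and was the one of these 6 whose gene was higher (0.33).
The calls of these 6 held in every fit that left out 1 library, and those of the other 2 of the 8 did not. CTBP1-210, of the corepressor CtBP1, went from 0.17, 0 and 0.04 TPM to 2.34, 1.93 and 2.30 TPM (adjusted p = 0.0261, up to 0.0986 without DMSO replicate 3, auxin replicate 2 or auxin replicate 3). RACK1-213 went from 0.56, 0.17 and 0.57 TPM to 1.37, 13.8 and 28.9 TPM, with auxin replicate 1 far below the other auxin libraries. Its adjusted p was 0.0353, 0.0799 with the replicate block, and up to 0.121 when 1 library was left out, above 0.05 in each such fit other than that without auxin replicate 1.

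The 8 largest falls in level, again among members with at least 1 TPM in the higher group, ended at or near 0 in every auxin library. PPP2R5D-201, of a regulatory subunit of phosphatase 2A, stood at 8.17, 1.77 and 0.97 TPM in DMSO and at 0 in all auxin libraries (adjusted p = 0.00984). IPO4-203, of the nuclear import receptor importin 4, went from 1.95, 2.71 and 2.26 TPM to 0 (adjusted p = 0.00151). HRAS-211, of the small GTPase gene HRAS, went from 3.57, 1.77 and 1.82 TPM to 0 (adjusted p = 0.000846), and USP21-210, of a deubiquitinase, from 2.42, 0.47 and 0.58 TPM to 0 (adjusted p = 0.0103).
These zeros are estimates, and no fold is given against them. DMSO replicate 1 was above the other DMSO libraries for PPP2R5D-201, HRAS-211 and USP21-210. In auxin libraries the deposited posterior SD of the count reached 248.7 for PPP2R5D-201, 63.35 for IPO4-203, 6.22 for HRAS-211 and 2.2 for USP21-210, so for the first pair the deposited uncertainty was large beside an estimate of 0. All 4 host genes were lower, by 1.04, 2.52, 1.58 and 1.93 on the log2 scale.
Integrator, a complex that cuts nascent RNA, gave 2 of the 8 falls: INTS3-209 stood at 0.41, 2.28 and 2.85 TPM in DMSO and 0.01, 0 and 0 TPM after auxin, and INTS3-205 at 1.09, 1.87 and 1.83 TPM against 0.01, 0 and 0.02 TPM (adjusted p = 0.0106 and 0.0112), in a gene that fell by 2.52. FGFR1-236, of the fibroblast growth factor receptor 1 gene, stood at 3.13, 1.57 and 1.00 TPM against 0.01, 0 and 0 TPM (adjusted p = 0.00176). EIF4G1-208, of the scaffold of the cap-binding complex, stood at 6.19, 8.09 and 5.67 TPM against 0, 0.05 and 0 TPM (adjusted p = 0.0257, up to 0.0842 without DMSO replicate 2, DMSO replicate 3 or auxin replicate 3). The other 7 calls held in every fit without 1 library.

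The share of the gene separates a change in a member from a change in its gene. Each member was set against all other transcripts of its gene in the same library, for 82921 transcripts of every type and 7483 of the members. Over all types 7.77% passed, 5.04% with a higher and 2.72% with a lower share. Of the members 286 had a higher share (3.822%) and 197 a lower share (2.633%), 6.455% together, in 432 genes. The median rise was 3.308 percentage points and the median fall -2.08 points. A rise of at least 10 points was seen in 76 members and a fall of at least 10 points in 39.
With the replicate number as a block these counts were 190 and 78. Without 1 library they ranged from 95 to 220 and from 15 to 112, lowest without DMSO replicate 2 (95 and 15) and without DMSO replicate 3 (109 and 28). With replicates 2 and 3 alone 0 of all 82921 transcripts passed edgeR's test, and so 0 members, although 1523 members had an unadjusted p under 0.05, against 1513 with all libraries.
In the same genes, retained intron transcripts had 1033 higher and 85 lower shares, protein-coding transcripts 648 and 738, and processed transcripts without a reading frame 150 and 72. The percent called was 12.32%, 7.714% and 5.841%, and no difference between types was tested.

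**Figure D3:**
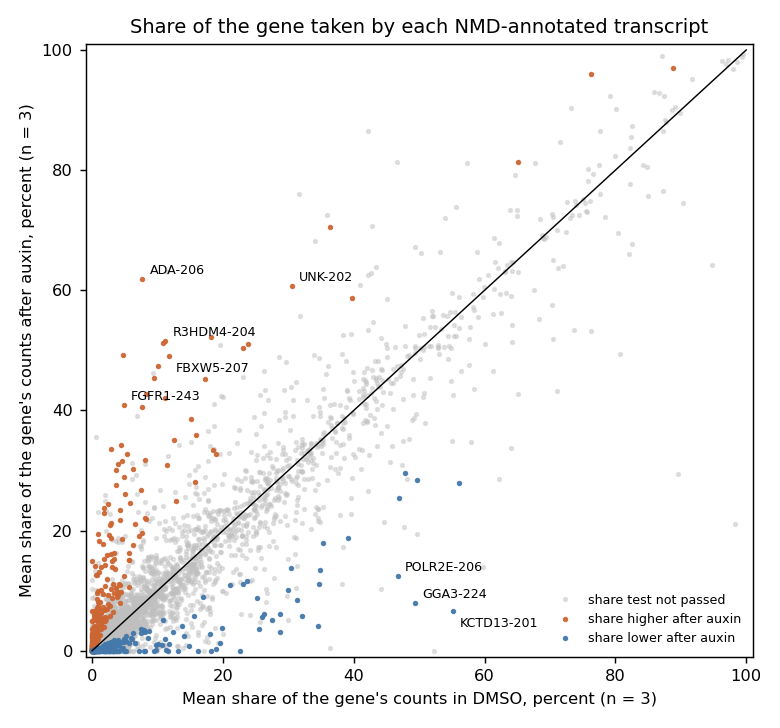
Mean share of the gene's expected counts held by each NMD-annotated transcript in DMSO (horizontal, percent, n = 3) and after auxin (vertical), with members that passed the share test in colour and the line of equal share. Most of the 7483 members lie near the line, with 286 called above it and 197 below it.

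Share and level moved in different combinations. Both rose for 131 members and both fell for 145. For 220 of the 286 members with a higher share the host gene was lower, and for 144 of those the level of the member itself was not called. For these 144 the share test passed beside a fall of the gene's other transcripts. Among the 197 members with a lower share the host gene was lower for 81, higher for 69 and not called for 47.

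Among called members with a symbol and at least 1 TPM in the higher group, ADA-206 had the largest rise in share. ADA encodes adenosine deaminase, which breaks down adenosine in purine salvage. The member held 8.18%, 7.56% and 7.28% of the gene's counts in DMSO and 59.5%, 64.2% and 61.8% after auxin, with no overlap (log2 odds change 4.29, SE 0.22, adjusted p = 0.0033). Its level rose from 0.75, 0.48 and 0.48 TPM to 2.96, 2.54 and 2.64 TPM (log2 fold change 2.45, SE 0.15, adjusted p = 0.000496), while the gene fell by 0.57.

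The next members gained share in genes that fell. R3HDM4-204 held 12.2%, 9.02% and 12.5% in DMSO and 52.3%, 53.1% and 49.3% after auxin (adjusted p = 0.00503), in a gene that fell by 3.17 on the log2 scale. Its own level did not pass as fitted (3.52, 1.47 and 2.01 TPM against 1.54, 0.83 and 0.77 TPM, adjusted p = 0.0542, and 0.0258 with the replicate block). FBXW5-207, of an F-box protein that picks substrates for a ubiquitin ligase, held 9.31%, 13.5% and 12.3% in DMSO and 46.9%, 50.7% and 49.7% after auxin (adjusted p = 0.00615). The level of FBXW5-207 had overlapping groups (adjusted p = 0.168), and the gene fell by 1.69.
FGFR1-243, in contrast to FGFR1-236 of the same gene, went from 4.07%, 5.26% and 5.25% to 37.7%, 40.6% and 44.4% (adjusted p = 0.00371) and from 0.49, 0.33 and 0.36 TPM to 1.85, 1.08 and 1.32 TPM (adjusted p = 0.000612). FGFR1 as a whole fell by 1.09. CMTM3-213, of a MARVEL-domain membrane protein, went from 6.06%, 4.71% and 5.15% to 32.1%, 32.1% and 34.2% (adjusted p = 0.00428), with its level up (1.61, adjusted p = 0.0024) and its gene down by 1.03.

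POLM-208 and ETHE1-202 rose in genes that were not called. POLM encodes a DNA polymerase of end joining, and POLM-208 went from 19.5%, 16.1% and 19.1% of it to 47.7%, 56.4% and 52.5% (adjusted p = 0.00882). ETHE1 encodes a mitochondrial enzyme of sulfide breakdown, and ETHE1-202 went from 17.8%, 18.8% and 15.2% to 42.1%, 48.0% and 45.6% (adjusted p = 0.00987). Their levels rose by 1.58 and 1.52 on the log2 scale (adjusted p = 0.0048 and 0.00137), beside gene changes of 0.06 and 0.12 (adjusted p = 0.791 and 0.21). UNK-202, of an RNA-binding zinc finger protein, went from 27.0%, 31.1% and 33.5% to 54.5%, 61.1% and 66.3% (adjusted p = 0.0199). Its gene UNK was called lower, by 0.60 on the log2 scale (adjusted p = 0.00227). The level of UNK-202 passed with the block but not as fitted (adjusted p 0.0555, and 0.0318 with the block).
Without DMSO replicate 2 the adjusted p for share was 0.0519 for POLM-208 and 0.0513 for ETHE1-202. That of UNK-202 reached 0.0879 when 1 library was left out and was above 0.05 in each such fit other than that without auxin replicate 1. The share calls of ADA-206, R3HDM4-204, FBXW5-207, FGFR1-243 and CMTM3-213 held in every fit without 1 library.

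Among called members with a symbol and at least 1 TPM in the higher group, KCTD13-201 had the largest fall in share. KCTD13 encodes an adaptor of cullin-3 ubiquitin ligases, and KCTD13-201 was its main transcript in DMSO at 52.6%, 55.4% and 57.4%, against 8.04%, 7.87% and 4.16% after auxin (log2 odds change -4.15, SE 0.36, adjusted p = 0.00586). Its level fell from 5.87, 4.10 and 4.13 TPM to 0.34, 0.24 and 0.11 TPM (log2 fold change -4.18, adjusted p = 0.00144). The gene total, which includes KCTD13-201, fell less (-1.19). POLR2E encodes a subunit common to all nuclear RNA polymerases. POLR2E-206 went from 51.7%, 44.9% and 43.6% of its counts to 14.3%, 12.1% and 10.9% (adjusted p = 0.00625), and from 40.3, 25.6 and 27.5 TPM to 4.45, 2.68 and 2.69 TPM (-3.09, SE 0.13, adjusted p = 0.000235). These calls held in every fit without 1 library.

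The other 6 falls were called with all libraries and lost without some of them. GGA3-224, of a clathrin adaptor of the Golgi, went from 46.1%, 49.3% and 52.5% to 4.72%, 15.1% and 3.96% (adjusted p = 0.0242). ABCD4-211, of a lysosomal cobalamin transporter, went from 27.0%, 32.8% and 36.5% to 3.48%, 6.78% and 6.97% (adjusted p = 0.0138). AKT2-203, of the kinase AKT2, went from 27.4%, 31.8% and 34.9% to 6.29%, 8.47% and 10.5% (adjusted p = 0.0122).
TIMM44-203 (mitochondrial import) went from 40.8%, 32.4% and 31.1% to 8.53%, 8.90% and 15.8%, PISD-208 (phosphatidylethanolamine synthesis) from 44.6%, 29.5% and 30.6% to 13.2%, 11.7% and 15.4%, and IPO4-203 from 13%, 31% and 24.1% to 0 (adjusted p = 0.0288, 0.0368 and 0.0126). In fits without DMSO replicate 2 or DMSO replicate 3 each of the 6 was above 0.05, as were GGA3-224, TIMM44-203 and PISD-208 without DMSO replicate 1 or auxin replicate 1, with adjusted p up to 0.0698 for ABCD4-211, 0.0646 for AKT2-203, 0.0748 for IPO4-203, 0.0987 for GGA3-224, 0.104 for TIMM44-203 and 0.116 for PISD-208. With the replicate block it was 0.0645 for GGA3-224, 0.0861 for TIMM44-203, 0.0743 for PISD-208 and 0.0736 for IPO4-203. The level falls of these 6 members held in every fit without 1 library, with adjusted p of 0.0023 for GGA3-224, 0.000387 for ABCD4-211, 0.000418 for AKT2-203, 0.00108 for TIMM44-203, 0.000997 for PISD-208 and 0.00151 for IPO4-203.

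**Figure D4:**
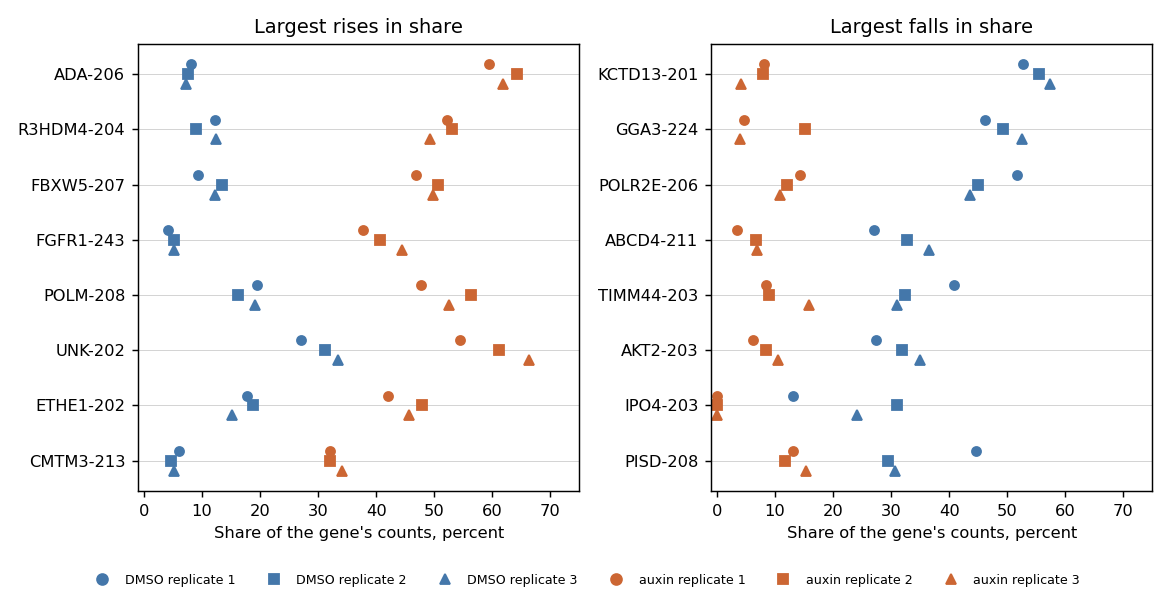
Share of the gene's expected counts in each library for the 8 largest rises (left) and the 8 largest falls (right), with DMSO in blue, auxin in orange and the replicate number as the shape. The choice was among called members with a symbol, a mean of at least 1 TPM in the higher group and groups that do not overlap. The values run from ADA-206 (7.28% to 8.18% in DMSO, 59.5% to 64.2% after auxin) to PISD-208.

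Some members crossed a mean of 50% of their gene's counts between the groups, and most of these did not pass the share test. Such crossings were not counted over all transcripts, of which 7.77% passed that test. A mean of at least 50% in DMSO and below it after auxin was found for 28 members, 2 of which passed the share test, KCTD13-201 and LRRC23-211 (56.0% and 28.0%). The reverse was found for 37 members, of which 9 passed. Besides ADA-206, R3HDM4-204, POLM-208 and UNK-202 these were FBN1-204 of fibrillin 1 (36.4% and 70.6%), PGAP1-206 (39.7% and 58.8%), TPCN2-207 (23.8% and 51.1%), AP4M1-203 (23.1% and 50.4%) and AC107871.1-203 (10.9% and 51.2%). Each of the latter had a mean under 1 TPM in both groups. AP4M1-203 was called lower in level (mean 0.233 TPM in DMSO, 0.07 TPM after auxin), in a gene with a log2 fold change of -2.74. TPCN2-207 was not called for level (0.263 and 0.237 TPM). FBN1-204, PGAP1-206 and AC107871.1-203 were called higher in level, PGAP1-206 in no fit without 1 library. The members not met before were named after their values were seen. With the replicate block the adjusted p was 0.109 for LRRC23-211, 0.0522 for FBN1-204, 0.0717 for PGAP1-206, 0.0513 for TPCN2-207 and 0.0711 for AP4M1-203, and each of these 5 was above 0.05 in every fit without 1 library, with a highest value of 0.149 for LRRC23-211. AC107871.1-203 was above 0.05 without DMSO replicate 2 (0.0519).

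In genes with several members, these did not always move together. Of 1793 such genes 94 had at least 2 members called for level, 73 in 1 direction and 21 in both. For share the counts were 46 genes, 28 in 1 direction and 18 in both. No such counts for other transcript types stand beside these. Of all transcripts, 7.29% were called higher and 9.94% lower for level, and 5.04% and 2.72% for share. In FGFR1 the member FGFR1-236 fell and FGFR1-243 rose. In EIF4A1, the helicase of translation initiation, EIF4A1-216 went from 55.9, 33.3 and 66.9 TPM to 4.92, 9.83 and 11.1 TPM (log2 fold change -2.38, adjusted p = 0.0225), and EIF4A1-218 from 1.70, 2.08 and 1.54 TPM to 6.75, 5.35 and 4.66 TPM (1.78, adjusted p = 0.00639). The gene EIF4A1 was not called (adjusted p = 0.362).
In EIF4G1 the member EIF4G1-208 fell, as above, and EIF4G1-222 rose from 1.18, 0.65 and 0.66 TPM to 7.87, 4.88 and 5.96 TPM (3.10, SE 0.13, adjusted p = 0.000218), from 0.693% ± 0.0647 to 7.08% ± 0.647 of the gene. The fall of EIF4A1-216 was above 0.05 without DMSO replicate 2, DMSO replicate 3, auxin replicate 2 or auxin replicate 3 (up to 0.0632), and its share (adjusted p = 0.0319) was above 0.05 with the replicate block (0.0695) and in all 6 fits without 1 library (up to 0.11). The level rises of EIF4A1-218 and EIF4G1-222 held in every fit without 1 library. The EIF4A1 members and EIF4G1-222 were chosen after their values were seen.

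The position of the stop codon was set beside the calls, by counts alone and against 7.77% of all transcripts called for share (5.04% higher, 2.72% lower). Members ending in an extended exon had 46 higher and 14 lower shares among 828 tested, and those ending in an exon absent from protein-coding transcripts 45 and 25 among 1742. Members with another stop codon within a protein-coding exon had 168 and 129 among 4048, and those that share the stop codon of a protein-coding transcript 26 and 29 among 783. The percent called was 7.246%, 4.018%, 7.337% and 7.024% in this order. For level, 17.2% of all transcripts were called, 7.29% higher and 9.94% lower. Absent-exon members had 73 higher and 76 lower of 1752. Members with another stop codon within a protein-coding exon had 189 higher and 395 lower of 4060. Extended-exon members had 37 and 62 of 831, and members with a shared stop codon 47 and 74 of 784.

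SR proteins recognise exonic enhancers, and their genes are known for poison exons, although not every member here ends in one. The list of SR and TRA2 genes, drawn up with earlier results of these data known as were all the lists below, held 19 members. Of these 1 was higher and none lower in level, beside 17.2% of all transcripts called. For share none passed edgeR's test, beside 7.77% of all transcripts, and 1 had an unadjusted p under 0.05 in each direction. For a lower level 0 had an unadjusted p under 0.05. The median log2 fold change of the 19 was 0.10, beside -0.07 over all members.
In SRSF6-202 the stop codon printed above lies in an exon absent from protein-coding transcripts. SRSF6-202 went from 15.3, 5.41 and 5.45 TPM to 35.5, 14.0 and 17.1 TPM (log2 fold change 1.57, SE 0.36, adjusted p = 0.0332). Replicate 1 was the highest in both groups, and the groups overlapped for SRSF6-202. Its share went from 5.29%, 2.45% and 2.18% to 12.6%, 5.48% and 6.08%, and passed with the replicate block but not as fitted (adjusted p 0.219, and 0.038 with the block). The level call of SRSF6-202 held with the replicate block (adjusted p = 0.00176). Without the block, that call was lost in every fit without 1 library other than that without DMSO replicate 1, with adjusted p up to 0.113.
SRSF3-203 stood at 13.5, 11.0 and 8.66 TPM against 12.3, 6.27 and 9.12 TPM, and TRA2B-206 at 11.1, 7.52 and 6.75 TPM against 10.8, 5.83 and 6.33 TPM. SRSF7-208 stood at 12.8, 7.25 and 7.48 TPM against 13.8, 7.60 and 7.89 TPM, and SRSF2-208 at 5.93, 3.56 and 3.08 TPM against 4.91, 2.31 and 3.08 TPM. The groups overlapped for all 4, with log2 fold changes of -0.12, 0.01, 0.27 and -0.12 in this order (adjusted p = 0.744, 0.978, 0.314 and 0.768), and the sign of all but SRSF7-208 turned with the scaling or with 1 library left out. The host genes of the list gave 2 higher and 2 lower of 13 tested, beside 52.3% of all genes called.

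The hnRNP genes, whose proteins coat nascent RNA and often repress exons, held 26 members, of which 3 were higher and 1 lower in level and 2 higher and 1 lower in share, beside 17.2% and 7.77% of all transcripts called. HNRNPD-211 went from 7.95, 7.29 and 5.42 TPM to 16.0, 13.4 and 15.4 TPM (log2 fold change 1.29, SE 0.17, adjusted p = 0.0051) and from 1.69%, 1.79% and 1.19% of the gene to 5.44%, 4.58% and 4.76% (adjusted p = 0.0141). HNRNPDL-202, of the paralog whose last coding bases resemble it, went from 4.89%, 6.16% and 5.70% to 14.3%, 15.0% and 15.9% (adjusted p = 0.00967), in a gene that fell by 0.81.
The level of HNRNPDL-202 was 11.3, 11.0 and 10.6 TPM in DMSO and 15.2, 14.2 and 16.6 TPM after auxin, with the groups apart. That level was called with the replicate block but not as fitted (adjusted p 0.0774, and 0.00803 with the block). HNRNPK-207 and HNRNPU-213 were the other higher members, and HNRNPUL1-208 was lower in level (1.45, 0.98 and 1.25 TPM against 0.63, 0.60 and 0.63 TPM) and share. Without 1 library the level calls of HNRNPK-207 (0.0434) and HNRNPUL1-208 (0.0356) were lost in all 6 fits, up to 0.141 and 0.11, and that of HNRNPU-213 (0.0149) without DMSO replicate 2 or auxin replicate 2, up to 0.0668. The share call of HNRNPD-211 was lost without DMSO replicate 2, auxin replicate 2 or auxin replicate 3 (up to 0.0565), that of HNRNPDL-202 without DMSO replicate 3 (0.0502), and that of HNRNPUL1-208 (0.0157) in all fits other than that without DMSO replicate 1 (up to 0.0714).

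Spliceosome, speckle and SR kinase genes held 62 members, with 3 higher and 6 lower in level and 2 higher and 5 lower in share, against the same background of 17.2% and 7.77%. EFTUD2-214, of the U5 snRNP GTPase, went from 0.66, 0.52 and 0.49 TPM to 2.59, 1.89 and 2.40 TPM (log2 fold change 2.21, SE 0.20, adjusted p = 0.00141), and from 0.169%, 0.210% and 0.177% to 1.40%, 1.36% and 1.51% of a gene that fell by 0.76. SRRM2-211, of the speckle scaffold SRRM2, stood at 0.80, 0.37 and 0.37 TPM in DMSO and 0.02, 0 and 0 TPM after auxin (adjusted p = 0.0111), in a gene that rose by 0.98. DDX39B-221, of the export and splicing helicase, went from 6.32, 1.98 and 2.52 TPM to 1.00, 0.49 and 0.54 TPM (-2.18, adjusted p = 0.0113).
The level calls of these 3 held without any 1 library. The other members called for level were U2AF2-208 and U2SURP-203, both higher, and SF1-207, SF1-211, TIAL1-210 and TIAL1-213, all lower. For share the higher members were EFTUD2-214 and U2AF2-208, and the lower ones CLK4-210, DDX39B-221, SF1-207, SF1-211 and SRRM2-211. Of these, SF1-207 lost both calls with the replicate block (adjusted p = 0.0547 for level, 0.0554 for share), and CLK4-210 its share call (0.0757). CLK3-225, of a kinase of SR proteins, passed for level with the block but not as fitted (adjusted p 0.0564, and 0.0213 with the block).
Left out one at a time, the libraries changed calls of several of them. The level calls of SF1-207, SF1-211, TIAL1-210, U2AF2-208 and U2SURP-203 were above 0.05 in at least 4 of the 6 such fits (up to 0.16 for U2SURP-203), and TIAL1-213 without DMSO replicate 3 (0.0509). For share, CLK4-210 was above 0.05 in all 6 fits (up to 0.138), DDX39B-221 and U2AF2-208 in 5 (up to 0.0878 and 0.0987), and SRRM2-211, SF1-207 and SF1-211 without DMSO replicate 2 or DMSO replicate 3 (up to 0.0567, 0.0652 and 0.0565), SF1-207 also without auxin replicate 2.

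The factors of the decay pathway are hosts of such transcripts themselves, and their 22 members gave 1 higher and 1 lower for level and for share, against 17.2% and 7.77% of all transcripts. RUVBL2-201, of an ATPase that works with the kinase SMG1, went from 23.9, 17.4 and 20.3 TPM to 10.3, 7.52 and 8.40 TPM (log2 fold change -1.07, SE 0.11, adjusted p = 0.00216). It held 29.7% ± 1.66 and 26.0% ± 1.09 of RUVBL2, which fell by 0.89, and its share did not pass (adjusted p = 0.49). SMG9-206 rose from 0.358%, 0.197% and 0.236% to 1.66%, 1.19% and 1.20% of SMG9 (adjusted p = 0.0143, up to 0.0677 without DMSO replicate 2, DMSO replicate 3, auxin replicate 2 or auxin replicate 3). Its level passed with the block but not as fitted (0.0786, and 0.0285 with the block). NCBP1-203 was lower in share (0.0488, and 0.0784 with the block, up to 0.158 without 1 library). NCBP2-205 passed for level with the block but not as fitted (0.0578, and 0.0337 with the block).

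Among the 28 genes of the decay pathway, exon junction complex and decapping that were tested, 13 were higher and 6 lower, where 52.3% of all genes were called (25.4% higher, 26.9% lower). UPF1, the central helicase, went from 22.9, 14.4 and 16.2 TPM to 9, 5.26 and 5.77 TPM without overlap (log2 fold change -1.55, SE 0.095, adjusted p = 2.06e-05). SMG9, a regulator of the kinase SMG1, fell from 27.4, 15.7 and 16.2 TPM to 15.9, 7.62 and 8.85 TPM (-0.99, adjusted p = 0.000728), and RUVBL2 from 98.2, 73.1 and 79.0 TPM to 48.2, 40.4 and 45.6 TPM (adjusted p = 2.29e-05). The decapping enzyme DCP2 fell by 0.54, and UPF3A and the exonuclease XRN1 by 0.26 and 0.22 (adjusted p = 0.0458 and 0.0126).
Among the higher genes were CASC3 (0.52), SMG8 (0.53), NCBP1 (0.45), NCBP2 (0.66), RUVBL1 (0.58), DHX34 (0.50), NBAS (0.31), PNRC2 (0.38), RNPS1 (0.38), the release factors ETF1 (0.38) and GSPT1 (0.37), and DCP1A (0.22), all as log2 fold changes. With the replicate block 19 were higher and 8 lower, and with upper-quartile scaling 16 and 4, where UPF3A (0.296) and XRN1 (0.143) were no longer called. Calls lost without 1 library were those of UPF3A (5 of 6 fits, up to 0.145), XRN1 without auxin replicate 3 (0.0558), DHX34 without DMSO replicate 2 or DMSO replicate 3 (up to 0.0751), and RUVBL1 and GSPT1 without DMSO replicate 2, auxin replicate 2 or auxin replicate 3 (up to 0.0792 and 0.0542).

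**Figure D5:**
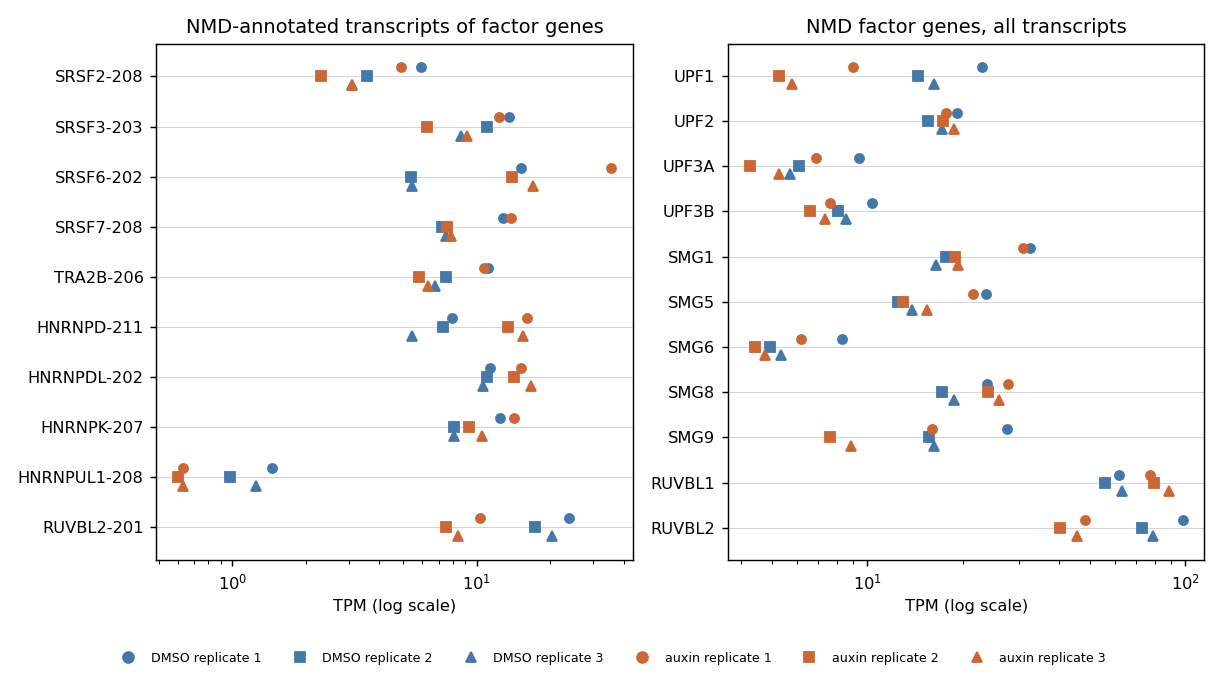
Level in TPM (log scale) in each library for NMD-annotated transcripts of splicing and decay factor genes (left) and for genes of the decay pathway as a whole (right), with DMSO in blue, auxin in orange and the replicate number as the shape. UPF1 is lower in every auxin library (5.26 to 9 TPM against 14.4 to 22.9 TPM), and SRSF6-202 overlaps between groups.

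Genes known as natural targets of the pathway were taken as a second readout, since they need not carry the annotation. Of 15 tested, 9 were higher and 3 lower, again beside 52.3% of all genes (25.4% higher, 26.9% lower). With upper-quartile scaling 10 were higher and 2 lower, and SNHG1 was not called (adjusted p = 0.115). The stress response genes ATF4, ATF3 and GADD45A rose by 0.60, 0.62 and 0.81 on the log2 scale (adjusted p = 9.6e-05, 0.000128 and 5.88e-05), with groups apart for ATF3 and GADD45A and overlapping for ATF4 (128.5, 83.0 and 88.1 TPM against 154.9, 118.9 and 131.2 TPM). GADD45B (0.51), DDIT3 (0.51), ASNS (0.45), CARS1 (0.17), UPP1 (0.82) and the snoRNA host gene SNHG15 (0.79) were also higher. The snoRNA host genes SNHG1 (-0.42) and SNHG12 (-0.71) and the acetyltransferase gene NAT9 (-1.51) were lower, so that snoRNA hosts were called in both directions. The snoRNA hosts GAS5 (0.20) and ZFAS1 (0.06) were not called (adjusted p = 0.135 and 0.70).
Calls lost without 1 library were those of CARS1 (5 of 6 fits, up to 0.168), DDIT3 without DMSO replicate 3 or auxin replicate 2 (up to 0.062), ASNS without DMSO replicate 2, auxin replicate 2 or auxin replicate 3 (up to 0.0605) and SNHG1 without auxin replicate 2 or auxin replicate 3 (up to 0.0815). The 11 members in these genes gave 2 higher and none lower for level in edgeR's test (0 lower at an unadjusted p under 0.05), beside 17.2% of all transcripts called. TBL2-207 went from 0.90, 0.52 and 0.43 TPM to 2.33, 1.36 and 1.49 TPM (1.67, adjusted p = 0.00477) and from 1.94% ± 0.657 to 6.74% ± 1.54 of TBL2 (adjusted p = 0.0314, up to 0.125 in 5 of the 6 fits without 1 library). UPP1-202 went from 0.91, 0.62 and 0.83 TPM to 1.88, 1.23 and 1.41 TPM along with its gene (1.10, adjusted p = 0.0163, up to 0.0716 without DMSO replicate 2, auxin replicate 2 or auxin replicate 3).

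Ribosomal protein genes hold some of the most abundant members. The genes, taken by a name pattern that also brings in RPS6K kinases and RPS19BP1, held 60 members with 2 higher and 7 lower in level, beside 17.2% of all transcripts called. Without the 11 genes that encode no ribosomal protein, an alternative added after seeing the data, there were 48 members with 2 higher and 1 lower, and 1 higher and 2 lower in share. RPS25-206 rose from 11.5, 8.88 and 10.5 TPM to 37.9, 23.6 and 21.2 TPM (log2 fold change 1.55, SE 0.19, adjusted p = 0.00384) and from 0.644% ± 0.0605 to 1.87% ± 0.474 of RPS25 (adjusted p = 0.0215, 0.0601 with the replicate block). RPL13A-210 fell from 5.16, 5.44 and 4.91 TPM to 0.80, 0.43 and 1.36 TPM (-2.44, adjusted p = 0.0176), with its share called as well (0.0323, 0.0662 with the block).
RPL27A-212 was higher in level (0.0332, 0.052 with the block). The level of RPS25-206 held without any 1 library, whereas RPL13A-210 was above 0.05 without DMSO replicate 2, DMSO replicate 3 or auxin replicate 1 (up to 0.064) and RPL27A-212 in 4 of 6 fits (up to 0.107). The share calls of RPS25-206 and RPL13A-210 were above 0.05 in 5 of 6 fits (up to 0.0987 and 0.124). RPS3-210 stood at 9.42, 218 and 238 TPM in DMSO and 6.90, 205 and 273 TPM after auxin, low in replicate 1 of both groups alike, and was not called (adjusted p = 0.964).

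Translation factor genes held 63 members, with 6 higher and 3 lower in level and 5 higher and 2 lower in share, beside 17.2% and 7.77% of all transcripts. The higher ones in level were EEF2KMT-203, EIF4A1-218 and EIF4G1-222, described above, and EIF3F-205, EIF3J-207 and EIF6-204. EIF3J-207 is the most abundant of these at 35.6, 25.7 and 28.8 TPM in DMSO and 39.9, 40.4 and 39.1 TPM after auxin (log2 fold change 0.59, SE 0.14, adjusted p = 0.0385), along with its gene (0.63). EIF2B2-202 fell from 3.53, 4.29 and 3.67 TPM to 0.91, 0.45 and 0.56 TPM (-2.50, SE 0.30, adjusted p = 0.00386), in a gene that fell by 1.72. EIF2D-208 had a higher share (0.00936), as had EIF6-204 (0.0247).
The call of EIF2B2-202 held without any 1 library. EIF3J-207 was above 0.05 in 5 of these 6 fits (up to 0.123), EIF3F-205 (0.0331) and EIF6-204 (0.0334) in 4 (up to 0.095 and 0.112), the share of EIF6-204 in 4 (up to 0.0972), and the share of EIF2D-208 without DMSO replicate 2 (0.0548). The genes of this list gave 27 higher and 19 lower of 68, beside 52.3% of all genes called.

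Depth and the certainty of the counts limit what these members can show. The libraries held 234037968 to 625895062 expected counts, and replicate 1 of both groups was the deepest. Members with at least 10 counts numbered 6376 to 7192 in the DMSO libraries and 5798 to 7005 in the auxin libraries. Members at 0 numbered 255 to 502 in DMSO libraries and 377 to 844 in auxin libraries, 56 members were at 0 in all DMSO libraries and 132 in all auxin libraries.
Level calls became more frequent with the count. Among 2807 members with a mean count of 10 to 50, 43 were higher and 122 lower (5.878%, against 4.892% of all transcripts of that depth), and among 1114 with at least 1000, 115 and 153 (24.06% against 34.02%). Share calls went from 4.103% of members at 10 to 50 counts over 7.395% and 10.1% to 6.022% at 1000 or more, beside 5.033%, 8.899%, 10.41% and 7.959% of all transcripts. The posterior SD of the count had a median of 15.77% of the count over members against 7.91% for protein-coding and 8.142% for retained intron transcripts. Among the 2518 members with a posterior SD under 10% of the count, 252 were higher and 308 lower in level (22.24%, beside 17.2% of all transcripts), and 177 higher and 81 lower in share (10.45%, beside 7.77%). Those shares of all transcripts carry no limit on the posterior SD.

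Of the epithelial markers EPCAM was at 213.1 to 297.8 TPM and CDH1 at 36.5 to 46.3 TPM, with KRT8 and KRT18 higher still, CDX2 was at 2.03 to 4.69 TPM and VIL1 at 0 to 0.02 TPM. Of the immune markers PTPRC and CD3E were at 0 throughout, while CD68, a lysosomal protein gene also used as a macrophage marker, was at 39.5 to 65.7 TPM in DMSO and 10.7 to 19.1 TPM after auxin. Of the fibroblast and endothelial markers COL1A1 was at 0.54 to 2.61 TPM and COL1A2, DCN, PECAM1 and VWF at 0.04 TPM or less. Mitochondrial transcripts made up 5.322% to 10.06% of TPM, lowest in replicate 1 of both groups. Without mitochondrial genes the difference in the members' share of TPM was -0.134 percentage points (exact permutation p = 0.5), beside -0.139 with them.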

How the data were processed

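Total RNA of HCT116 cells was sequenced in 6 libraries, 3 after 16 h of auxin and 3 with DMSO, grouped by the labels' treatment. The authors deposited 1 table per library with an expected count (estimated reads), TPM (abundance scaled by effective length) and a posterior SD of the count for each transcript, per the file headers. The submitters' processing notes name bcl2fastq 2.20, STAR and DESeq2 and the builds GRCh38 and hg38. The quantifier's version, its annotation and its strand setting are not given in the sources used here.

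Transcript IDs were matched to GENCODE 29 (206761 transcripts in 58780 genes), and 746 other IDs were left out. Expected counts were rounded and tested with edgeR 4.0.16 (quasi-likelihood, TMM factors, R 4.3.3) on all 89813 transcripts with a mean of at least 10, with Benjamini-Hochberg adjustment over all of them and a threshold of 0.05. A member's share was tested in the same way against the other transcripts of its gene, with a term per library, over 82921 transcripts, and genes over 19725. Share values per library are percents of the gene's expected counts. Library shares used a two-sided exact permutation test. Limma 3.58.1 and DESeq2 1.42.0 served as alternatives, beside other scalings, filters, the replicate number as a block and each library left out. Tables were made with Python 3.11.15 and pandas 2.3.3.

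Members with a symbol and at least 1 TPM in the higher group were named by rule: the 8 largest changes in each direction for level and for share (passing the test, groups not overlapping), the 8 with the highest TPM, and the highest member of each SR, hnRNP, decay factor and CLK gene. The members and lists were chosen with earlier results of these data known. Individual results for a few called members and genes are not reported here, although the counts include them.

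Deviations of same-numbered libraries from their group means correlated at 0.472, 0.138 and 0.152 over 89813 transcripts, which sets apart number 1 alone. The main fits had no term for the labels' numbers, which served as a block in an alternative fit. Numbers 2 and 3 were not set apart from each other: DMSO 2 with auxin 3 gave 0.14 and DMSO 3 with auxin 2 gave 0.188. The labels call the replicates biological and do not name separate cultures, so p-values may measure technical spread. On simulated data with 10000 changed transcripts, 4.93% of level calls were of unchanged transcripts. For share, 1.27% of calls were in genes with no changed transcript. Calls of unchanged transcripts in genes with a changed one were not counted there, so the 2 percentages are not alike. With 200 changed transcripts, 6% of 4-fold level changes and 0% of 4-fold share changes were recovered, and 25% of the 8 level calls were false.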

Additional observations from a re-analysis of the deposited data

How the results depend on the processing

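Level calls among the members numbered 349 higher and 625 lower, and 589 and 1010 with DESeq2, 138 and 591 with limma on log2(TPM + 0.1), and 520 and 759 with the replicate block. Share calls numbered 286 higher and 197 lower, 190 and 78 with the replicate block, 211 and 122 with a mean count of at least 1, and 0 and 0 with replicates 2 and 3 alone, a setting chosen after seeing the data in which 0 of all 82921 transcripts passed. Without 1 library, level calls ranged from 168 to 288 higher and 289 to 605 lower, share calls from 95 to 220 and 15 to 112, and the difference in NMD share of library TPM from -0.22 to 0.000709 percentage points. The low ends for calls came without DMSO replicate 2, and 0.000709 without DMSO replicate 1. The causes were not tested.

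Of the named members, 38 of 68 level calls and 16 of 56 share calls held in every fit without 1 library, and 63 and 35 with the replicate block. No called member or gene changed sign in any alternative run (124 member values, 31 genes), whereas 25 of 82 uncalled values did. The called values had been selected in these same libraries, so their steady sign is no independent check. Uncalled values near 0 that turned were the level of RACK1-224 (log2 fold change 0.167 with upper-quartile scaling, 0.00417 with posterior mean counts, 0.00577 with replicates 2 and 3 alone, -0.0894 to 0.0556 without 1 library), the level of SRSF2-208 (0.0656 with upper-quartile scaling, -0.317 to 0.0119 without 1 library) and the level of SRSF3-203 (0.0679 and -0.246 to 0.0128 likewise). The level of TRA2B-206 turned to -0.0795 with library size alone, -0.00192 with no filter, -0.167 with limma, -0.00262 with the replicate block and -0.144 with replicates 2 and 3 alone, and ranged from -0.17 to 0.0705 without 1 library. Depth limits the rarest members: 2807 had a mean count under 50, of which 5.878% were called for level, against 4.892% of all transcripts at that depth.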
